A study of Arabidopsis thaliana with 7 samples.

Results

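The transcripts described here fell to at most 0.5 times the wild-type level in flowers of both arf6 arf8 mutant genotypes, without and with sprayed auxin. They were selected by measured array values, so their difference from wild type is a description and carries no test. A probe set (the group of array probes that reads out a transcript) was a member where its intensity was at least 250 on all 3 wild-type Columbia arrays. In addition, both mutants had to read at most 0.5 times Columbia on the untreated arrays and again on the arrays sprayed with indole-3-acetic acid (IAA), the main natural auxin, after values below 65 had been set to 65. Control probe sets and genes known by a SWEET, TPS, EXPA, GH9, RALFL or XTH name, 7 of which met the same limits, were left out. Of 22746 probe sets, 10440 reached 250 on every Columbia array and 58 of these were members (0.556%). The platform annotation gives 1 gene for 28 of the 58, several for 1 and none for 29, which are named by their probe set identifiers. These 29 have no gene name, so they could not be screened for the gene families left out.

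Arabidopsis thaliana flowers of stages 1 to 14 from plants grown for 6 weeks in long days were profiled on 7 arrays, 1 for each group. Columbia flowers were untreated, sprayed with mock solution (1% methanol, 0.05% Tween-20) or sprayed with IAA in that solution. The double mutant arf6 arf8 and the genotype labelled arf6/arf6 ARF8/arf8, with a wild-type allele at a single locus, were untreated or sprayed with IAA, and no mock array of either was used. Flowers were collected 30 minutes after spraying. The stated IAA dose is 10 µM in the sample labels but 10 mM in the series text, which also names ARF6, not ARF8, as the heterozygous gene, and neither point could be settled. Neither ARF6 nor ARF8 is listed for a probe set, so the genotypes could not be checked on the mutated genes. No group has a repeat array, so a value on 1 array has no error of its own. The median intensity was 240.9 to 261.5 on the 7 arrays, and the Columbia mock array had a raised low end, with a 10th percentile of 26.9 against 9.5 to 17.9 on the others.

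ARF6 and ARF8 are auxin response factors, transcription factors that act on genes near auxin response elements and are held back by Aux/IAA proteins until auxin triggers their breakdown. In Arabidopsis flowers they act redundantly and promote jasmonate production. Flowers lacking both stop as closed buds with short petals and stamen filaments, anthers that do not open and immature gynoecia. Much late flower growth depends on wall-modifying enzymes and secreted proteins of petals, filaments and styles.

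"Lost" describes few of the members literally. In the double mutant 9 of the 58 read below 65 on both arrays, 7 on 1 array and 42 on neither. In arf6/arf6 ARF8/arf8 only AT1G43590 read below 65 on both arrays, 3 members did on 1 array and 54 on neither. The members are therefore called lowered transcripts below. Their untreated level was 4.06% to 49.6% of Columbia in arf6/arf6 ARF8/arf8, with a median of 38.6%, and 1.99% to 49.7% in the double mutant, with a median of 21.6%. With IAA the medians were 37.3% and 20.9%. Over all probe sets at 250 or more in Columbia the corresponding 4 medians were 99.1% to 100.2%. Both ratios of a mutant were at most 0.25 for 32 members in the double mutant and for 5 in arf6/arf6 ARF8/arf8.

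**Figure D1:**
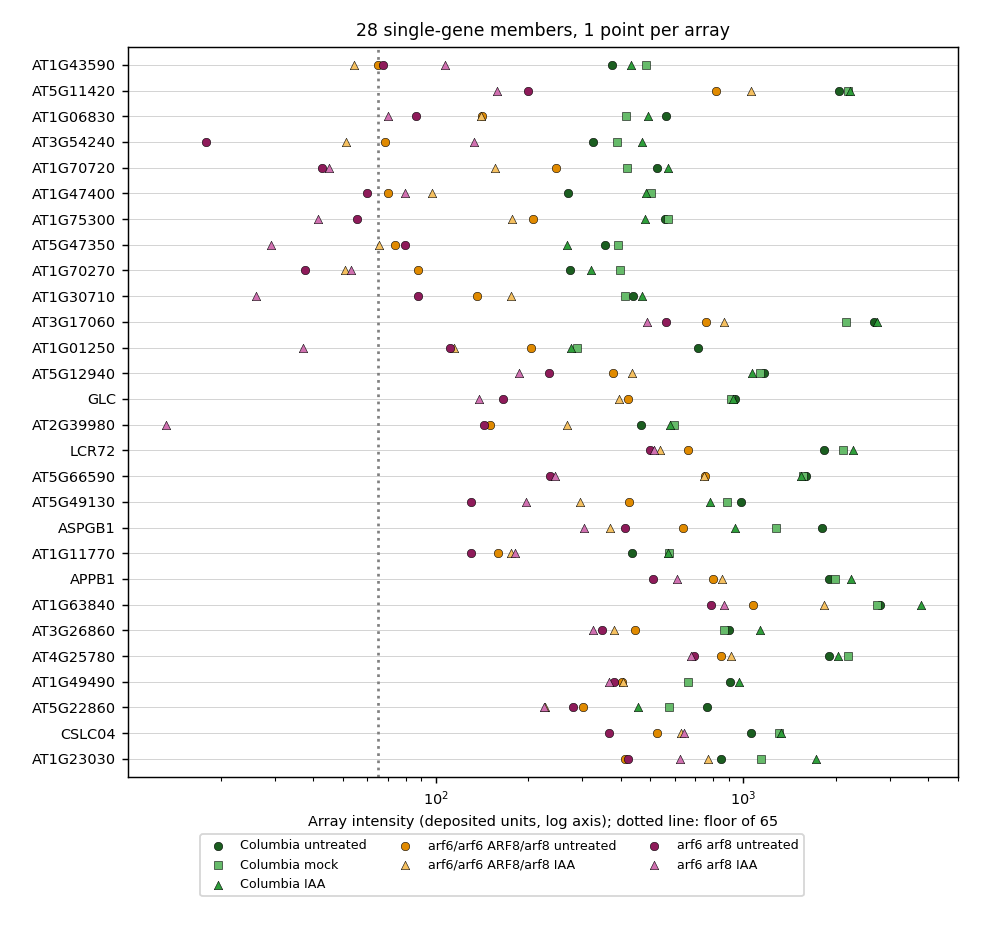
Array intensity in deposited units (log axis) of the 28 members with 1 listed gene, ordered by their mean fall in the mutants, with 1 point for each of the 7 arrays and a dotted line at the floor of 65. For AT5G11420 at the wide end the Columbia points lie at 2050.3 to 2226.7 and the arf6 arf8 points at 157.9 and 200.6, while for CSLC04 near the narrow end the arf6 arf8 IAA point at 640.8 lies above the other mutant points.

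Only the 28 members with 1 listed gene were grouped by product. Of these, 6 were wall-related, at 28.4% to 49.4% of untreated Columbia in arf6/arf6 ARF8/arf8 and at 9.8% to 41.8% in the double mutant. AT5G11420 encodes a DUF642 protein, a family found in plant cell walls. It read 2050.3, 2202.3 and 2226.7 on the Columbia untreated, mock and IAA arrays, 818.4 and 1062 untreated and with IAA in arf6/arf6 ARF8/arf8, and 200.6 and 157.9 in the double mutant. The 3 genotypes formed separate steps, and untreated flowers of the double mutant held 9.8% of the Columbia value. AT3G17060, of the pectin methylesterase family that removes methyl groups from pectin, read 2668.1, 2162.6 and 2733.4 in Columbia in the same order. Its mutant values were 756.3 and 870.5, and 562.5 and 488.7 in the double mutant. The mutants thus lay close together and well below Columbia.

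AT1G70720 and APPB1 belong to the invertase and pectin methylesterase inhibitor family. AT1G70720 read 527.1, 420.6 and 570 in Columbia, 246.4 and 156 in arf6/arf6 ARF8/arf8, and 42.6 and 44.9, below the floor, in the double mutant, which makes it at least 8.43-fold lower there. APPB1 read 1899.7, 1990.1 and 2252.5, then 798.5 and 854.9, then 508 and 610. CSLC04, a glucan synthase that builds the backbone of xyloglucan, was among the mildest falls: 1061.8, 1306.7 and 1327.3 in Columbia against 524.4 and 628.1, and 367.4 and 640.8. With IAA the mutants were nearly equal for CSLC04. AT1G49490, a leucine-rich repeat extensin of the pollen type, read 908.9, 664.6 and 970.6 in Columbia and between 367.5 and 406.5 on the 4 mutant arrays.

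Small secreted proteins made up 4 of the 28 single-gene members. LCR72, also named PDF2.6, is a plant defensin, a class of small cysteine-rich peptides. It read 1836.1, 2121.4 and 2275.2 in Columbia, 664.5 and 536.4 in arf6/arf6 ARF8/arf8 and 496.6 and 514.6 in the double mutant, so the mutants nearly coincided. AT5G66590 and AT4G25780 encode CAP proteins, the superfamily of pathogenesis-related protein PR-1. AT5G66590 varied little within a genotype, at 1603, 1572 and 1548.2 in Columbia, 753.8 and 748.3 in arf6/arf6 ARF8/arf8 and 235.8 and 244.6 in the double mutant. AT4G25780 read 1902.2, 2193.9 and 2041.3 in Columbia, 848.6 and 915.5, then 694.1 and 675.8. For the first of these CAP genes the mutants were far apart and for the second they were close. AT3G26860, of the family of the poppy self-incompatibility protein S1, lay near the limit of the rule, with 900.4, 865.7 and 1137.7 in Columbia and 324.7 to 446.5 in the mutants.

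Enzymes of secondary and general metabolism formed the largest group of the 28 single-gene members. These 10 genes lay at 20.8% to 44.7% of untreated Columbia in arf6/arf6 ARF8/arf8 and 11.7% to 36.9% in the double mutant. AT1G75300 encodes an isoflavone reductase-like protein. It read 556.3, 568.9 and 480.9 in Columbia, 207.4 and 177.6 in arf6/arf6 ARF8/arf8, and 55.4 and 41.5 in the double mutant, at least 7.96-fold lower. GLC (GLAUCE) and AT2G39980 encode acyltransferases of the BAHD family, and GLC is known for its part in endosperm development. GLC was nearly constant in Columbia at 942.8, 917.6 and 926, a coefficient of variation of 1.38% over the 3 arrays, and read 421.6 and 395, then 165.7 and 138.8 in the double mutant. AT2G39980 read 464.7, 595.4 and 578.3 in Columbia, 150.1 and 267.2 in arf6/arf6 ARF8/arf8 and 144.1 and 13.3 in the double mutant. The double-mutant arrays of AT2G39980 were thus far apart.

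AT1G30710 and AT1G11770 belong to the berberine bridge enzyme-like flavoproteins. AT1G30710 read 437.9, 412.9 and 469.2 in Columbia, 136.6 and 175.4, then 87.7 and 26 in the double mutant. AT1G11770 read 435.5, 576.3 and 569.9 in Columbia and 130.7 to 181.6 on the 4 mutant arrays, whose genotypes overlapped. AT3G54240 and AT5G47350, of the alpha/beta hydrolase superfamily, had mutant values without a consistent order. AT3G54240 read 324.8, 389.4 and 469.9 in Columbia, 68.5 and 51.3 in arf6/arf6 ARF8/arf8, and 17.9 and 133.2 in the double mutant. AT5G47350 read 355.9, 392.1 and 268.6 in Columbia, 73.9 and 65.5, then 79.4 and 29.1. For both genes the mutants' values overlapped near the floor.

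AT1G06830, a glutaredoxin-family gene, fell further in the double mutant: 561.8, 414.9 and 491.6 in Columbia, 142 and 140.2, then 86.5 and 70. ASPGB1 encodes an asparaginase, which releases ammonium from asparagine. Its Columbia level was highest untreated, at 1806.5 against 1283.1 with mock and 941.3 with IAA. The mutants followed the same order, with 639 and 369.4 in arf6/arf6 ARF8/arf8 and 414.2 and 303.9 in the double mutant. AT5G22860, of the S28 serine carboxypeptidase family, also ran from 761.9 untreated to 455.9 with IAA in Columbia. It read 301.7 and 227.5 in arf6/arf6 ARF8/arf8 and 281 and 226.1 in the double mutant, values that hardly separate the mutants.

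AT5G49130 encodes a transporter of the MATE family and AT1G47400 a small peptide of the IRON MAN type that promotes iron uptake. AT5G49130 read 986.5, 889.9 and 782.9 in Columbia, 425.5 and 295.3, then 130.9 and 197.3 in the double mutant. AT1G47400 read 270.7 untreated in Columbia and 503.6 and 482 on the sprayed arrays, against 69.9 and 97.3, then 59.8 and 79.4. Its Columbia spread was therefore wide, while all 4 mutant arrays stayed under 100.

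Of the single-gene members, 3 had regulatory products. AT1G01250, an AP2/ERF-type transcription factor gene, read 711.8 untreated in Columbia but 289.5 with mock and 276.6 with IAA. In arf6/arf6 ARF8/arf8 it read 204 and 114.8 and in the double mutant 111.3 and 37.1. AT1G63840, a RING-finger protein gene, read 2781.5, 2718.3 and 3783.1 in Columbia, 1075 and 1840.1, then 787.8 and 865.7. AT1G23030, which encodes a U-box ubiquitin ligase with armadillo repeats, read 847, 1142.3 and 1723.4 in Columbia, 412.1 and 769.3, then 421.2 and 625.4. In all 3 genotypes its IAA array was the highest.

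Of the 3 remaining single-gene members, AT5G12940 encodes a leucine-rich repeat protein. It read 1172.3, 1134.7 and 1066.6 in Columbia, 378.8 and 435.8, then 234.7 and 187.5 in the double mutant. AT1G43590 read 375.7, 483.3 and 431.8 in Columbia, 64.9 and 54.2 in arf6/arf6 ARF8/arf8, at least 6.20-fold lower, and 67.7 and 107.7 in the double mutant. It was the single member with a lower level in arf6/arf6 ARF8/arf8 than in the double mutant in both pairs of arrays. AT1G70270 read 272.9, 396.9 and 319.6 in Columbia, 87.5 and 50.6, then 37.5 and 52.9.

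By mean log2 ratio to Columbia the deepest falls all lay on probe sets without a single listed gene, from -4.77 for 256311_at to -2.49 for 261226_at. AT1G43590 followed at -2.43 as the first single-gene member. The probe sets described here are named after their values were seen. Probe set 256311_at read 2025.9, 1854.5 and 2014.3 in Columbia, 82.3 and 73.5 in arf6/arf6 ARF8/arf8 and 31.4 and 75.8 in the double mutant. It was the single member at or under 0.1 times Columbia in all 4 mutant ratios, with both mutants near the floor. Probe set 259574_at read 4935.8, 4644.5 and 5075.6 in Columbia, 2359 and 2437 in arf6/arf6 ARF8/arf8, and 98.1 and 89.3 in the double mutant, 53.5-fold below Columbia. Probe set 265133_s_at, which the annotation gives to both AT1G51250 and AT1G51240, read 1990.3, 1903.5 and 2184.2, then 452 and 545.7, then 301.6 and 228.6.

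The position of the limit mattered for which genes counted as members. Just inside it were AT1G63840, CSLC04, AT3G26860, AT1G23030 and AT5G22860, whose highest mutant ratios were 0.486 to 0.499. Just outside were the pectate lyase gene AT5G48900 at 0.503, PRA1.B6 at 0.507, AT1G72110 at 0.510, AT5G20390 at 0.510 and AT1G35190 at 0.511. AT5G48900 read 2293, 2306.6 and 2562 in Columbia and 315.5 and 246.9 in the double mutant, and was left out through 1153.2 on the untreated arf6/arf6 ARF8/arf8 array.

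The ratios on the untreated and on the IAA arrays share no array, though both counts below also rest on the minimum of 250 on all 3 Columbia arrays. On the untreated arrays alone 115 probe sets met both mutant limits, and the 58 members are 50.4% of them. On the IAA arrays alone 108 did, of which the members are 53.7%. In 57 of the 58 members every mutant array lay below every Columbia array, as it did for 12.8% of all probe sets at 250 or more in Columbia. The exception was 247925_at. The rule used the ratios to the untreated and IAA arrays, and the mock array entered it by its minimum alone. All 4 mutant arrays were at most 0.5 times the mock array for 43 members, or 74.1%, against 0.91% of those probe sets. The same mutant arrays stand in the rule, so this too is a description.

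The double mutant was then set against arf6/arf6 ARF8/arf8. The rule sets no direction between the mutants, but it chose the members on these same 4 arrays for a strong difference from Columbia. The counts below are therefore a description, and the shares over all probe sets, most of them little changed in either mutant, are no fair measure for them. Of the 58 members 44, or 75.9%, were lower in the double mutant in both pairs of arrays, against 30.9% of all probe sets at 250 or more in Columbia. The median log2 ratio of the members was -0.61 untreated and -0.64 with IAA, against 0.00 and 0.01 over the 13021 probe sets tested. In a limma model with additive genotype and treatment terms over all 7 arrays, 19 members, or 32.8%, were lower in the double mutant at an adjusted p (Benjamini-Hochberg) under 0.05, where 0.952% of all tested probe sets were. None was higher, where 0.3% of all were. The p-values that follow are those of the fit over all probe sets and give no independent support for a difference between the mutants in the members as a set.

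The 6 single-gene members past the threshold were AT5G11420, AT5G66590, AT1G70720, AT1G75300, GLC and AT1G06830. AT5G11420 was lower by 5.24-fold (log2 -2.39 ± 0.19 SE, limma adjusted p = 0.0026) and AT5G66590 by 3.13-fold (log2 -1.64 ± 0.13 SE, limma adjusted p = 0.0026). For the pectin methylesterase inhibitor gene AT1G70720 and for AT1G75300, both under the floor in the double mutant, the fitted log2 differences on the floored scale were -1.59 ± 0.20 and -1.56 ± 0.14 (limma, adjusted p = 0.0166 and 0.0039). GLC differed by -1.43 ± 0.14 and AT1G06830 by -0.86 ± 0.14 (limma, adjusted p = 0.00524 and 0.0411). The AT1G06830 call was lost with quantile normalization and with an intensity trend (limma, adjusted p = 0.0769 and 0.0913). With the floor at the 40th percentile its log2 difference was 0.00 (limma, adjusted p = 1). At that floor the calls of AT1G70720 and AT1G75300 were lost too, at -0.32 and -0.29 (limma, adjusted p = 0.533 and 0.397). By group, 2 of 6 wall genes, 1 of 4 small secreted protein genes and 3 of 10 enzyme genes passed the threshold. Over all 28 single-gene members 6 did, and groups so small cannot be told apart from that share. No share over such genes on the whole array was counted. No other single-gene member was called, AT5G12940 being the nearest (limma, adjusted p = 0.0516).

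The other 13 calls had no listed gene, led by 259574_at at -4.68 ± 0.13, 264430_at at -3.23 ± 0.14 and 254685_at at -2.83 ± 0.14 on the log2 scale (limma, adjusted p from 6.14e-05 to 0.000349). Probe set 264430_at read 1301.5, 1511.9 and 1383.3 in Columbia, 545.3 and 686.4 in arf6/arf6 ARF8/arf8 and 8 and 17.9 in the double mutant, so the fitted value rests on the floor. At the other end were members with mutants alike or reversed without a call: AT3G54240 at 0.48 ± 0.25, AT1G43590 at 0.39 ± 0.18, AT5G47350 at 0.05 ± 0.14 and 256311_at at -0.15 ± 0.15 (limma, adjusted p from 0.4 to 0.908). Without the untreated arf6 arf8 array 6 of the 58 were called, AT5G11420 among them, and without its IAA array 5, none with a single listed gene. For AT5G11420 the limma adjusted p was then 0.0515. Without either array the other 5 single-gene calls were lost (limma, adjusted p from 0.0536 to 0.25), and AT1G06830 lost its call without either array of arf6/arf6 ARF8/arf8 (limma, adjusted p = 0.102 and 0.313). Over all tested probe sets, too, calls became fewer without either array of arf6 arf8, so that loss is not particular to the members. When dim probe sets were kept limma called 0 of the 58, with 32 at an unadjusted p under 0.05. No other probe set on the array was called between the mutants in that setting.

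**Figure D2:**
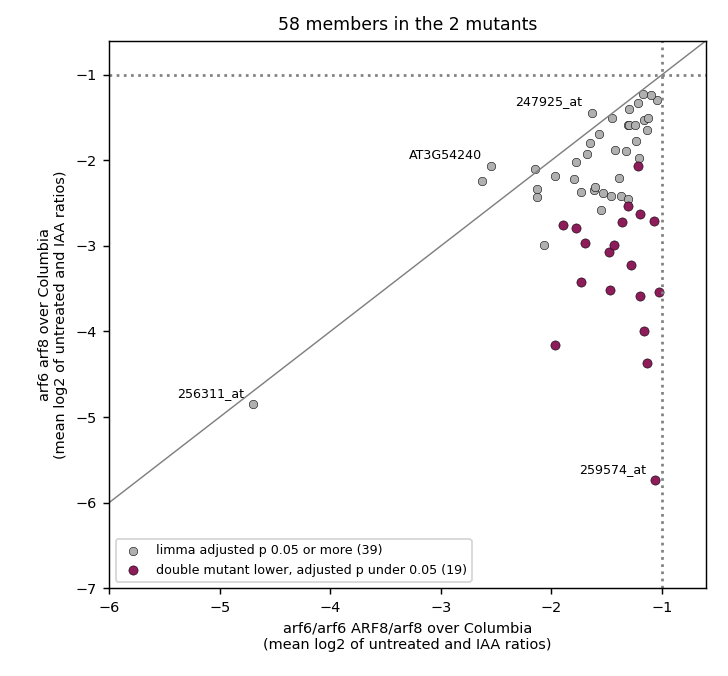
Mean log2 ratio to Columbia over the untreated and IAA pairs, for arf6/arf6 ARF8/arf8 (x axis) and arf6 arf8 (y axis), with 1 point for each of the 58 members, dotted lines at a ratio of 0.5 and a line of equality. Most points lie under the line of equality, the 19 called ones in colour, with 259574_at the lowest and 256311_at near the line.

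**Figure D3:**
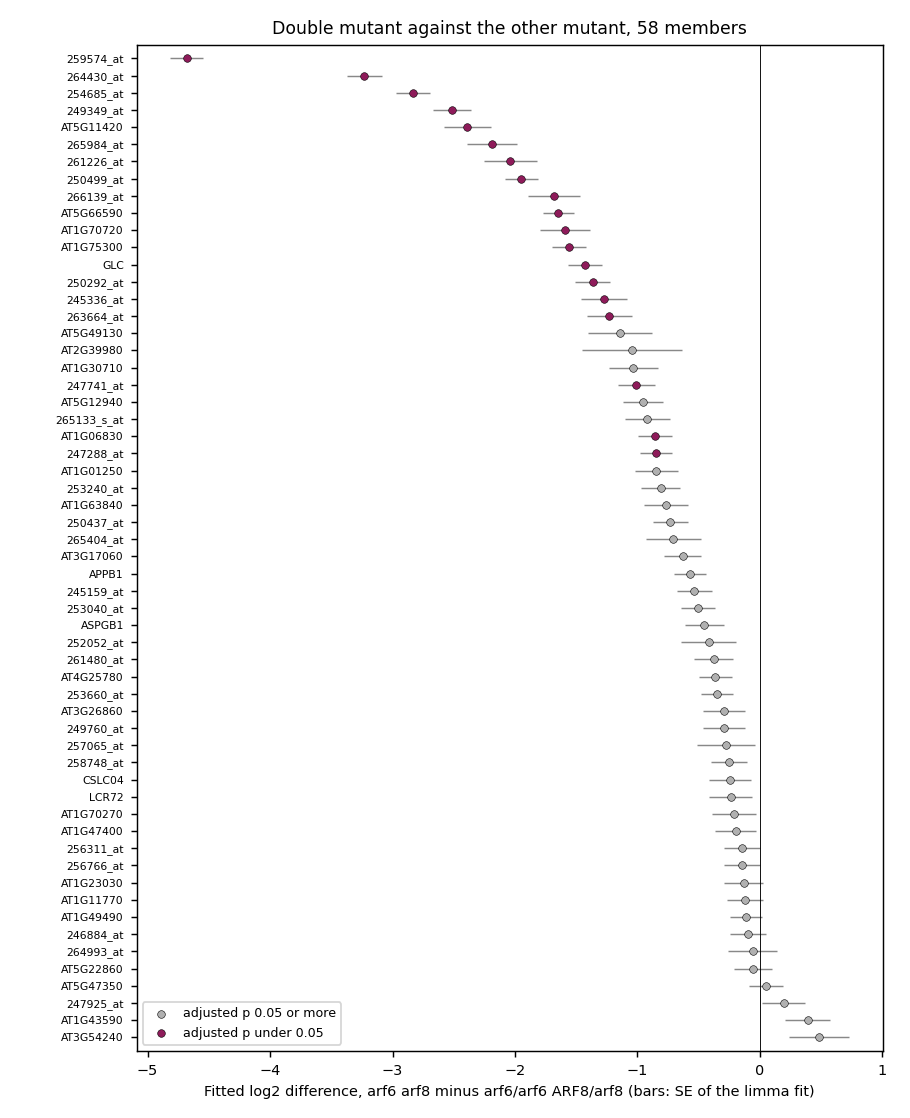
Fitted log2 difference of arf6 arf8 minus arf6/arf6 ARF8/arf8 for each of the 58 members, with bars for the SE of the limma fit and the 19 members past the threshold in colour. Values run from -4.68 for 259574_at to 0.48 for AT3G54240.

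IAA against untreated was tested over the 3 genotypes. The rule sets no limit on this contrast, but it chose the members on the same arrays. A transcript that IAA brought to or from a level under 250 in Columbia could not be a member. For 55 of the 58 lowered transcripts no IAA difference was called. The median log2 ratio of the members was 0.10 in Columbia, -0.02 in arf6/arf6 ARF8/arf8 and 0.00 in the double mutant, and over all tested probe sets it was -0.01 in each. Of the 58, 2 were higher and 1 was lower with IAA (limma, adjusted p under 0.05), where 0.737% and 0.346% of all tested probe sets were, and 15 had an unadjusted p under 0.05. AT1G23030, the U-box ubiquitin ligase gene, was 1.78-fold higher (log2 0.83 ± 0.13 SE, limma adjusted p = 0.0368). Its log2 ratio was positive in every genotype, and in Columbia the IAA array was 1.51-fold above mock. The transcription factor gene AT1G01250 was 1.98-fold lower (log2 -0.99 ± 0.15 SE, limma adjusted p = 0.0348). Its arf6 arf8 IAA value of 37.1 was below the floor. With the floor at the 40th percentile its log2 difference was -0.58 (limma, adjusted p = 0.356). The AT1G23030 call was lost at that floor too (limma, adjusted p = 0.0724).

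Probe set 247925_at stood apart from the other members. It read 909.9 untreated, 4147.9 with mock and 6532.3 with IAA in Columbia, 305.8 and 2015.4 in arf6/arf6 ARF8/arf8, and 284.5 and 2829.2 in the double mutant. The IAA values of the mutants were above the untreated Columbia value, yet below 0.5 times the Columbia IAA value. Its fitted IAA difference was 2.96 ± 0.14 on the log2 scale (limma, adjusted p = 0.00219). Without the untreated or the IAA array of arf6 arf8 limma called none of the 58, with 17 and 18 at an unadjusted p under 0.05, and the adjusted p was 0.0573 and 0.0592 for 247925_at, 0.116 and 0.115 for AT1G23030, and 0.164 and 0.167 for AT1G01250. Those fits without an arf6 arf8 array called no other probe set for IAA, so the loss is not particular to the members. With untreated and mock as one control, or with dim probe sets kept, limma likewise called 0, with 12 at an unadjusted p under 0.05 each time. Of all probe sets these 2 settings called 0.0154% and none. For the unadjusted p no share over all probe sets was counted, here or for the other contrasts. Without either array of arf6/arf6 ARF8/arf8 AT1G23030 lost its call (limma, adjusted p = 0.0971 and 0.101).

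The mock spray was compared with untreated flowers in Columbia on 1 array each side, and its test borrows the spread of the other arrays. The members' median log2 ratio was -0.02, as over all tested probe sets. Only 247925_at was called higher (log2 2.25 ± 0.23 SE, limma adjusted p = 0.034), where 0.438% of all were, and none was called lower, where 0.315% were, with 5 members at an unadjusted p under 0.05. For AT1G01250 the mock array at 289.5 was close to the IAA array at 276.6, and its mock difference was not called (limma, adjusted p = 0.0907). Without either arf6 arf8 array limma called 0 for mock, with 7 at an unadjusted p under 0.05, and without the Columbia IAA array it called 3. The lack of mock calls without an arf6 arf8 array held over all tested probe sets too. A mock array was used for Columbia alone, so IAA and the spray cannot be told apart in the mutants.

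**Figure D4:**
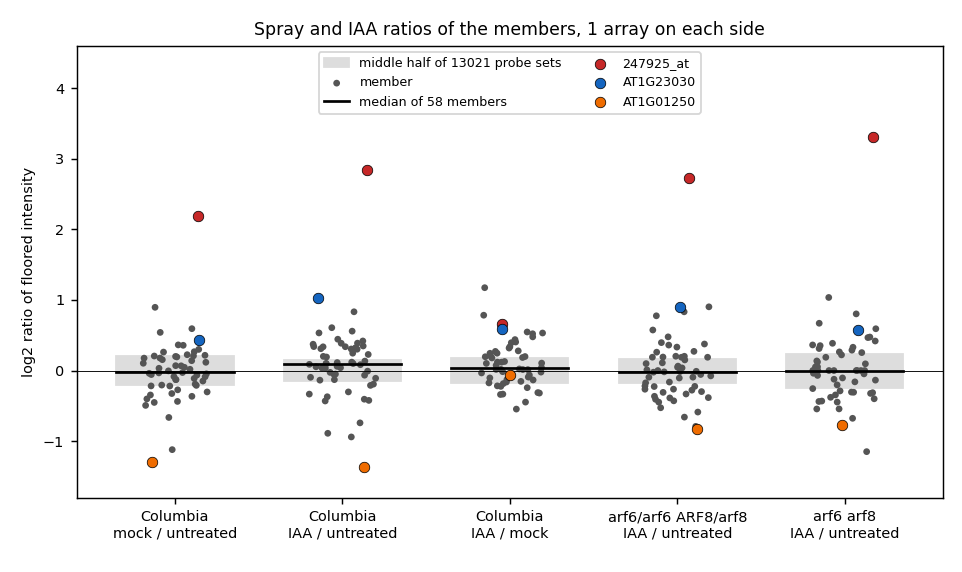
Log2 ratio of floored intensity for the 58 members in 5 pairs of arrays, with the members' median as a line and the middle 50% of the 13021 tested probe sets as a grey band. Medians lie between -0.02 and 0.10, and 247925_at is the highest point in the 4 ratios over untreated, at 2.19 to 3.31.

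None of the 28 single-gene members is in the lists of known genes set beside them. These lists hold 162 entries, 37 of them on a probe set with 1 gene and 31 past the filter. The other members have no single listed gene and could not be matched to the lists. In the nectary and scent list 4 of 10 entries were measured, and SWEET9, TPS11 and TPS24 met the limits and were left out by name. In the wall expansion list 4 of 11 were measured and EXPA8 met them. For jasmonate, 1 of 10 response genes and 2 of 15 synthesis genes were measured, and the synthesis genes lay above the limit: AIM1 read 2019.2 untreated in Columbia, 1885.3 in arf6/arf6 ARF8/arf8 and 1642.1 in the double mutant, and OPCL1 471.6, 410.6 and 301.7. Of the early auxin genes 5 of 19 passed the filter, of which GH3.3 and HAT2 were higher with IAA (limma, adjusted p = 0.0214 and 0.0111). Of the cutin, flavonoid, gibberellin and anther dehiscence lists 1, 3, 1 and 1 genes were measured with no member, and no gene of the stamen and petal MYB list was listed for a probe set. Outside the auxin list, the calls in the lists were TPS11, SWEET9, EXPA8 and the stigma gene AT3G12000 lower and ADPG1 higher in the double mutant than in arf6/arf6 ARF8/arf8 (limma, adjusted p from 0.000413 to 0.0133), and ADPG1 lower with mock (limma, adjusted p = 0.0413). No pair among the 28 single-gene members lay within 10 protein-coding genes of each other in the RefSeq gene order.

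Markers of flower cell types differed between the genotypes too. Of the pollen list 4 of 22 genes passed the filter, and their summed intensity was 1697.2 to 2082.2 on the Columbia arrays, 1273.6 to 1310.1 in arf6/arf6 ARF8/arf8 and 977.1 to 1016.5 in the double mutant. ANX2 and AT59 lay below every Columbia array in both mutants. AGL65 overlapped Columbia in both, at 238.5 to 409.7 in Columbia, 237.1 and 246.4, then 192.7 and 277 in the double mutant. AGL66 overlapped it in arf6/arf6 ARF8/arf8 alone. The summed tapetum list, with 2 of 17 genes, ran the other way from the summed pollen list, at 676 to 913.5, 1316.5 to 1775.9 and 1786.8 to 2332.5. Of the stigma and style list 2 of 9 genes passed, SPT and AT3G12000, with sums of 1172.5 to 1653.8, 1347.9 to 1449.6 and 662.9 to 878. These genes ran opposite ways: SPT read 395.1 to 486.4 in Columbia, 569.7 and 600.2 in arf6/arf6 ARF8/arf8 and 622.9 and 801.3 in the double mutant, whereas AT3G12000 read 777.4 to 1167.4, then 879.9 and 747.7, then 40 and 76.7. The division marker AUR1, 1 of 5, read 683.8 to 846.9, 792.9 to 890.3 and 690.1 to 737.4. None of these markers was at 0, and no green tissue marker is named. In whole flowers fewer cells of a type and less RNA per cell cannot be told apart, and the part of these differences in the members' falls was not tested.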

How the data were processed

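Array intensity was measured on 7 biotin-labelled arrays of flower RNA. The deposited intensity signals are on a linear scale, made with MAS5 per the submitters' processing notes. Trimmed by 2%, the mean of every array came to 500, and this scaling by the authors was left as it was. Detection calls were not used here. Genes came from the platform annotation of 2016, updated by gene identifier with RefSeq's TAIR10.1 gene table. It matched 13436 of 13513 single-gene probe sets and served for names and gene order alone. TPS11 and TPS24 are listed there by locus code and were left out by their names in the lists of known genes. With both kept there were 60 members.

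For tests, intensities were floored at their 25th percentile (65.2), log2 transformed and kept where the highest array exceeded the 50th percentile (248.1), which left 13021 probe sets and all 58 members. limma 3.58.1 in R 4.3.3 (lmFit, eBayes) was fitted with additive genotype and treatment terms, 2 residual degrees of freedom and Benjamini-Hochberg adjustment at 0.05. Because no group has a repeat, p-values measure how well the effects add across arrays, and precision is limited by the number of arrays. The fit was also run on data simulated from its own additive terms and variances, with no floor. That run cannot show errors that come from the floor or from effects that do not add.

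The members and lists were chosen with earlier results of these data known. By rule the text names, of single-gene members, the 12 largest falls, the 5 on each side of the limit, all calls, the 8 brightest and list members. The other single-gene members are described too, a choice made after their values were seen. Families are from general knowledge, since product names and protein sequences were not used here, nor were promoter motifs. Python 3.11.15 was used for tables.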

Additional observations from a re-analysis of the deposited data

Results flagged for a closer look

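AT2G39980, the acyltransferase gene, moved in opposite directions with IAA in the mutants by at least 1.5-fold. The log2 ratio of IAA over untreated was 0.83 in arf6/arf6 ARF8/arf8 (150.1 to 267.2) and -1.15 on the floored scale in arf6 arf8 (144.1 to 13.3), a difference of 1.98. Each direction rests on 1 pair of arrays and the difference was not tested.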

How the results depend on the processing

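The number of members followed the limit: 23 at a ratio of 0.4, 149 at 0.6, 28 with single-gene probe sets alone and, chosen after seeing the data, 115 or 108 on the untreated or IAA arrays alone. Calls among the members changed with the floor at the 40th percentile to 1 for IAA, 0 for mock and 10 for the double mutant against arf6/arf6 ARF8/arf8. Of all tested probe sets that floor called 0.399%, 0% and 0.591%. With dim probe sets kept all 3 counts were 0. Of all 22746 probe sets that setting called none for IAA or between the mutants, but 4.03% for mock. With untreated and mock as one control the IAA count was 0, and with an intensity trend the mock count was 2. Leaving out 1 array at a time gave 0 to 3 calls for IAA, 0 to 3 for mock and 5 to 27 for the double mutant. The median log2 ratio between the mutants with IAA was -0.809 with a floor of 20 and -0.459 with 130, and untreated it was -0.427 with 130. The causes of these shifts were not tested. Of the alternatives for 23 results on single features, 240 kept their side of the threshold, 84 lost the call and none reversed. No paired analysis was possible because no group has repeat arrays whose numbers could be paired, and the fit itself already compares treatments within genotypes. Signal near the floor limits the folds of the 16 members with a double-mutant array below 65.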
